A study of Drosophila melanogaster with 6 samples.

Results

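The mitochondrial ribosomal protein genes of Drosophila melanogaster were taken as the rows whose FlyBase identifier has an Ensembl BDGP6 symbol starting with mRpL or mRpS. The rule found 73 of the 17411 genes counted, 47 mRpL genes of the large subunit and 26 mRpS genes of the small subunit. Of these, 71 were matched by identifier and 2 (mRpS5 and mRpS34) by identical coordinates. The low-count filter kept 72 of them among 9285 genes tested. The small subunit genes tko (S12) and bonsai (S15) carry other names, lie outside the rule and are given separately.

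The mitochondrial ribosome translates the few messages encoded by the mitochondrial genome, all of them for subunits of the respiratory chain and the ATP synthase. Its RNAs come from the mitochondrial genome, whereas its proteins are encoded in the nucleus, made in the cytoplasm and imported. Some of these proteins have a counterpart in the bacterial ribosome and others occur only in mitochondria. The gut's enterocytes, which absorb nutrients and secrete digestive enzymes, carry many mitochondria.

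PolyA-selected RNA was sequenced in 3 libraries of 9G8-RNAi (genotype Mex-Gal4>9G8RNAi, source intestines) and 3 of GFP-dsRNA (genotype Mex-Gal4>GFPdsRNA), with replicate letters A, B and D in each group. Mex-Gal4 is an enterocyte driver and is shared by both groups. The first transgene targets 9G8, an SR protein gene listed as x16, and the second makes a control RNA against GFP. The labels conflict: the tissue of the GFP-dsRNA libraries is entered as control fat bodies, and the series' design text has yolk-Gal4 in place of Mex-Gal4. The sources used here do not give age, sex or the number of flies per library, and no label says that the samples of a group are separate cohorts. The p-values therefore measure the spread between these samples, which may be technical.

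Library totals ran between 26216430 and 66562756 counts, and 2079 to 6091 genes were at 0 in a library. Enterocyte markers (12 of 12 found, none at 0) summed to 104609 to 192391 CPM of total counts (reads scaled to a common library total) in 9G8-RNAi and 74825 to 243359 in GFP-dsRNA, whereas the fat body marker Lsp2 reached at most 0.102 CPM in any library, below or at the level of 3 counts. The 12 fat body markers summed to 509, 255 and 138 CPM in 9G8-RNAi A, B and D, and to 633, 118 and 142 in GFP-dsRNA A, B and D. Of these markers, 2 were at 0 in 9G8-RNAi A, in 9G8-RNAi B and in GFP-dsRNA D. The fat body label of the GFP-dsRNA libraries was thus not matched by its markers, although their sum was highest in GFP-dsRNA A. GFP-dsRNA A stood apart. The 12 muscle markers, none at 0, summed to 359 to 774 CPM in 9G8-RNAi, to 6833 in GFP-dsRNA A, and to 455 and 314 in GFP-dsRNA B and D. The 7 Malpighian tubule markers, none at 0, summed to 232 to 472 CPM in 9G8-RNAi, to 1371 in GFP-dsRNA A, and to 249.97 and 139.8 in GFP-dsRNA B and D. The part of these markers in the results below was not tested. In bulk RNA, fewer cells of a type and less RNA per cell cannot be told apart. The targeted gene x16 had 5.44, 9.76 and 7.69 CPM of total counts in 9G8-RNAi and 13.9, 7.92 and 12.7 in GFP-dsRNA. These ranges overlapped, with a log2 fold change of -0.53 ± 0.46 (SE) and an adjusted p of 0.918 in edgeR's quasi-likelihood test, so the lower mean in 9G8-RNAi did not pass the threshold.

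The 73 genes together took 0.234%, 0.215% and 0.191% of all counts in 9G8-RNAi A, B and D, and 0.181%, 0.205% and 0.155% in GFP-dsRNA A, B and D. The lowest 9G8-RNAi share thus lay below the highest GFP-dsRNA share. A tested gene had between 114 and 5634 counts in a library, so counting error was small beside the spread between replicates, whose median biological coefficient of variation was 0.369 over these genes and 0.394 over all genes tested.

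Levels below are CPM scaled with TMM, a factor that aligns the bulk of genes between libraries, and divided by kilobases of exon, so that long and short genes can be compared. Medians over the 6 libraries were taken among genes that passed the low-count filter. The median mitochondrial ribosomal protein gene (72 of 73 kept) had 28.1 CPM per kb and the median cytoplasmic ribosomal protein gene (84 of 92 kept) 1354. The median nuclear respiratory chain gene (65 of 85 kept) had 271 and the median gene tested 3.18. The 2 subunits were alike in this respect, with a median of 26.4 CPM per kb for the large and 30.0 for the small subunit. Individual genes, whose products are assembled in equal numbers into a ribosome except for the stalk protein L12, were far from equal in transcript level. From mRpL44 at 6.07 to mRpL33 at 138.8 CPM per kb they spanned 22.9-fold, and 10 genes held 38.5% of the summed level.

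The most abundant large subunit transcript was mRpL33, which encodes a small conserved protein and lies on chromosome X from 4321764 to 4322231 of BDGP6 (minus strand, 349 exonic bases). It had 240.3, 136 and 90.2 CPM per kb in 9G8-RNAi A, B and D, and 64.0, 109.9 and 192 in GFP-dsRNA A, B and D. The groups overlapped, with the highest value in 9G8-RNAi A and the lowest in GFP-dsRNA A. Next came mRpL12, the stalk protein that contacts the translation factors, with 163, 162 and 98.3 CPM per kb in 9G8-RNAi and 51.0, 119 and 163 in GFP-dsRNA. The gene mRpL36, for another small conserved protein, had 239, 131.5 and 79.2 CPM per kb in 9G8-RNAi and 31.0, 137 and 129 in GFP-dsRNA. In each of these 3 genes GFP-dsRNA A was lowest and 9G8-RNAi D second lowest on this TMM scale.

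Of the small subunit, mRpS21 was the most abundant. It encodes the counterpart of bacterial S21 and lies on 3R from 13381276 to 13381809, where 48.0% of its exonic bases overlap CG8870 on the other strand. Its levels were 209, 153.5 and 96.7 CPM per kb in 9G8-RNAi and 52.5, 95.8 and 165 in GFP-dsRNA. The counterpart of bacterial S14, mRpS14, had 221, 132 and 78.3 in 9G8-RNAi and 28.8, 102.2 and 130.1 in GFP-dsRNA. These genes followed the library order of the abundant large subunit genes, lowest in GFP-dsRNA A and, within 9G8-RNAi, highest in A and lowest in D. At the other end, mRpL44 had 6.42, 6.36 and 6.49 CPM per kb in 9G8-RNAi and 5.71, 5.91 and 5.54 in GFP-dsRNA, and mRpS29, a GTP-binding protein of the small subunit, had 7.52, 8.27 and 8.24 in 9G8-RNAi and 7.08, 9.99 and 7.88 in GFP-dsRNA.

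**Figure D1:**
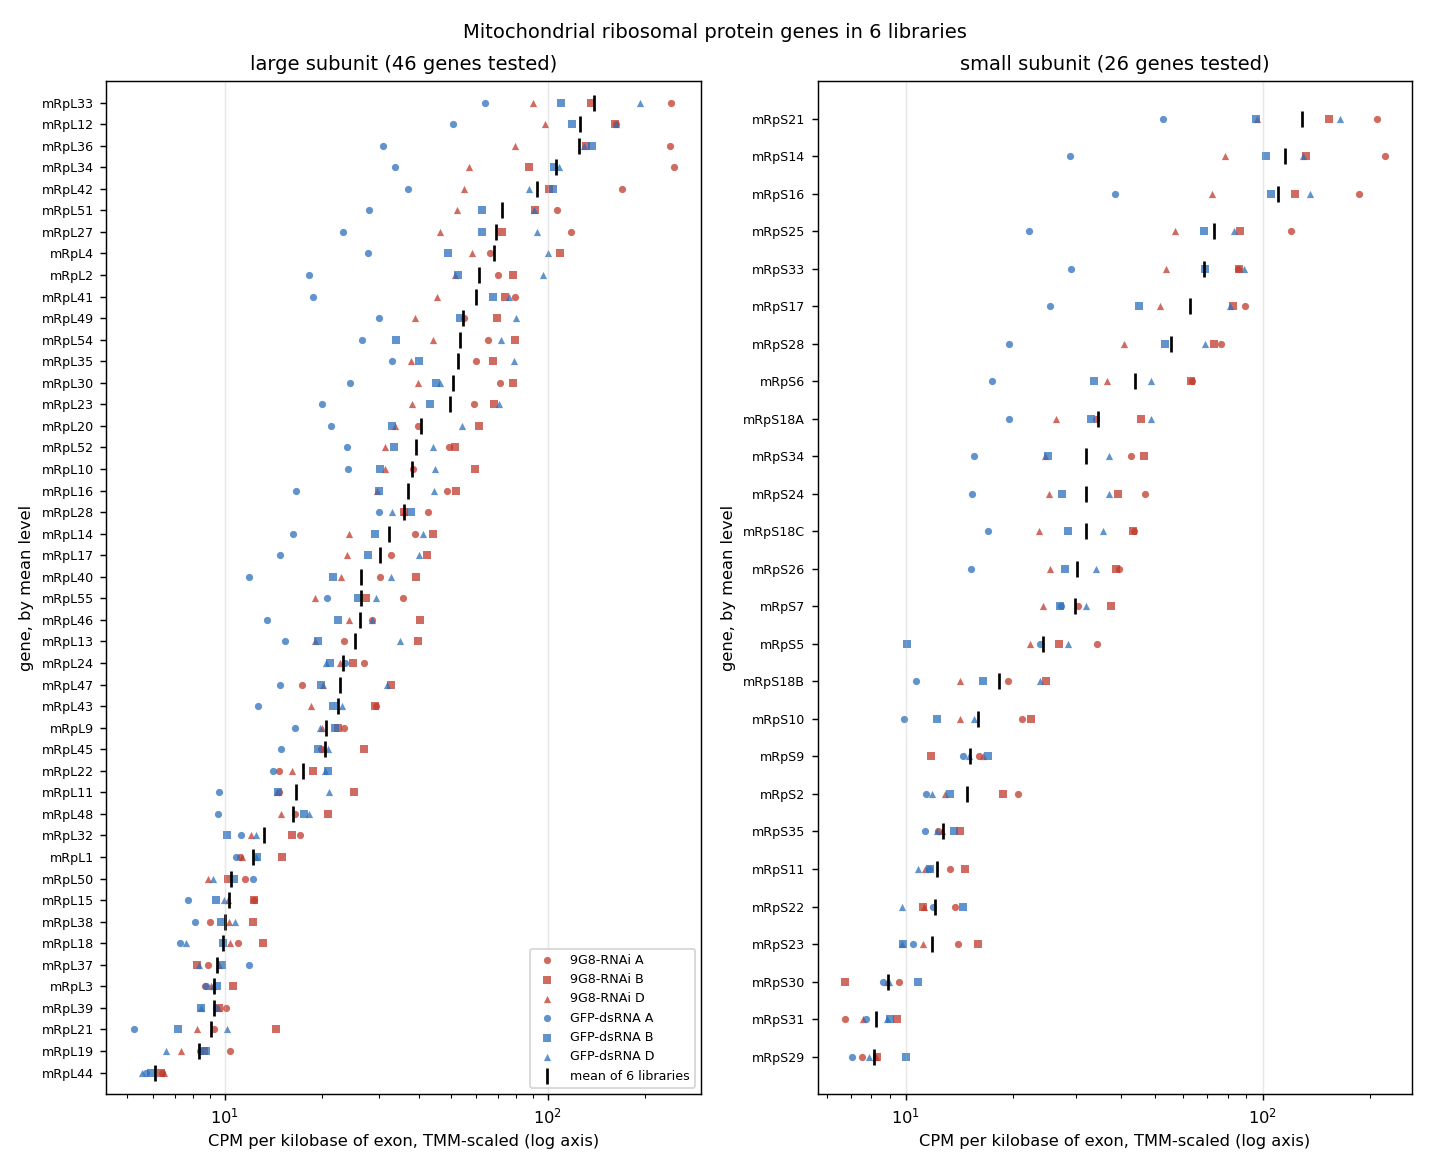
Level of each of the 72 tested genes in the 6 libraries, in CPM per kilobase of exon on a log axis, large subunit at left and small subunit at right, with 9G8-RNAi in red, GFP-dsRNA in blue and the mean as a bar. Genes are ordered by mean level. With TMM scaling GFP-dsRNA A (blue circle) was the lowest library for 55 of the 72, including all 21 with a mean over 50. It was lowest for 1648 of all 9285 genes tested, 63 of 84 cytoplasmic ribosomal protein genes and 49 of 65 nuclear respiratory chain genes. On total counts it was lowest for 20 of the 72 and highest for 28, and GFP-dsRNA D was lowest for 41.

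The order of the genes was much the same in all libraries, and most alike in 9G8-RNAi B and GFP-dsRNA D, libraries of different groups. Across the 72 tested genes, which share each library's depth, the rank correlation of levels between libraries ran from 0.955 to 0.985 among the 5 libraries other than GFP-dsRNA A and from 0.882 to 0.920 between that library and the others. Genes with a high level per kb were short: the rank correlation of this level with exonic length was -0.657 over these genes and -0.418 over all genes tested. The level is itself divided by length, so a negative correlation is partly built in, and CPM not divided by length was not examined for this. The median length of the 73 genes was 783 bases (327 to 2078), against 2043 for all genes tested, and 8 of the 73 had no intron.

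The large over small subunit comparison asks whether transcripts of the 2 subunits of the ribosome kept their proportion. As the summed level of all mRpL genes over that of all mRpS genes, the ratio was 1.70, 1.81 and 1.76 in 9G8-RNAi A, B and D, and 1.86, 1.87 and 1.85 in GFP-dsRNA A, B and D. It needs no scaling between libraries. Between libraries the summed level of all members moved 2.89-fold with TMM scaling and 1.51-fold on total counts. The ratio stayed between 1.70 and 1.87, and its groups did not overlap. The mean was 1.76 ± 0.056 in 9G8-RNAi and 1.86 ± 0.011 in GFP-dsRNA (SD, n = 3 each), a log2 difference of -0.084. The ratio is a score over genes chosen with earlier results known, so no p is given. That separation depended on how the subunits were summed. With the 43 genes that share exonic bases with a neighbour left out, the ratio was 3.23, 2.69 and 2.56 in 9G8-RNAi and 2.24, 3.17 and 3.04 in GFP-dsRNA, which overlapped, with a log2 difference of 0.014. By the median gene of each subunit it was 0.885, 1.02 and 0.957 in 9G8-RNAi and 1.05, 0.859 and 0.991 in GFP-dsRNA, again overlapping. That median was taken over all 47 large subunit genes, including mRpL53, which had 0 counts. By CPM not divided by length the groups overlapped as well. In human mitochondria the proteins named S30 and S18A sit in the large subunit. With mRpS30 and mRpS18A moved there the groups did not overlap and the log2 difference was -0.11. Without the highest gene of each subunit they did not overlap either, but narrowly. The ratio was then 1.787, 1.938 and 1.879 in 9G8-RNAi and 1.941, 1.957 and 1.958 in GFP-dsRNA, a log2 difference of -0.064.

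**Figure D2:**
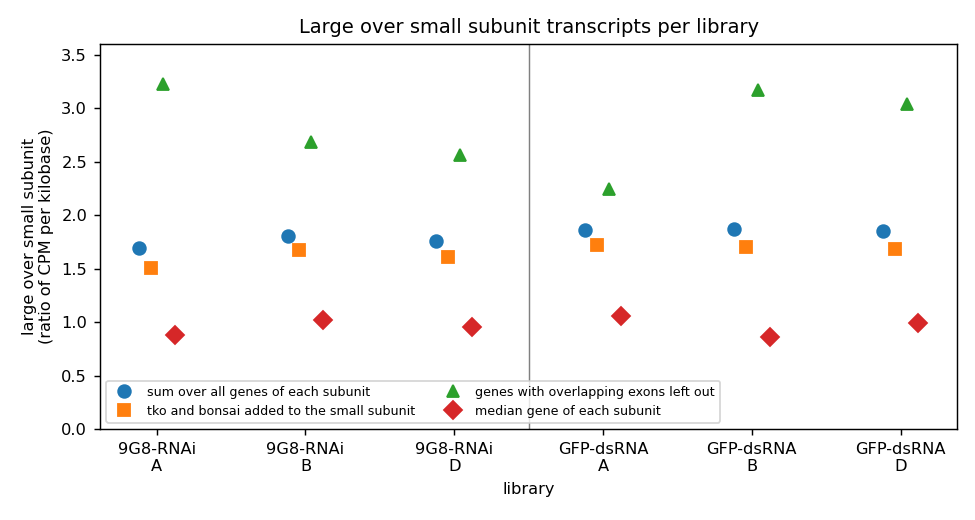
Ratio of large to small subunit level in each library, computed in 4 ways (vertical axis, ratio of CPM per kilobase, from 0). The sum over all genes lay between 1.70 and 1.87 in every library, whereas the ratio without genes that share exonic bases ranged from 2.24 to 3.23 and its groups overlapped.

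Per subunit, the summed large subunit level was 2506, 2236 and 1388 CPM per kb in 9G8-RNAi A, B and D, and 898, 1665 and 2197 in GFP-dsRNA A, B and D. Summed over the small subunit it was 1477, 1237 and 787 CPM per kb in 9G8-RNAi and 482, 890.4 and 1188 in GFP-dsRNA. Both subunits put the libraries in the same order, with 9G8-RNAi A highest and GFP-dsRNA A lowest, and in both the groups overlapped. Without TMM, the same genes summed to 2336, 2153 and 1906 CPM of total counts in 9G8-RNAi and 1812, 2046 and 1548 in GFP-dsRNA. The range between libraries was then 1.51-fold and GFP-dsRNA D, not A, was lowest. TMM factors ran from 0.635 in GFP-dsRNA D to 1.68 in GFP-dsRNA A, so which control library was lowest rested on the scaling.

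No mitochondrial ribosomal protein gene passed the threshold between 9G8-RNAi and GFP-dsRNA. Most fold changes were above 0 but within their errors: 64 of 72 genes had a log2 fold change above 0, against 44.3% of all genes tested, with a median of 0.31 (quartiles 0.15 and 0.48) against -0.07 for all genes. The median was 0.30 for the large subunit (43 of 46 above 0) and 0.42 for the small (21 of 26 above 0). The size of this shift depended on single libraries. The median was 0.056, with 44 genes above 0, without GFP-dsRNA A, the library with high muscle markers, and 0.70 without GFP-dsRNA D. It was 0.19 without 9G8-RNAi B and 0.51 without 9G8-RNAi D. It was 0.083, with 44 above 0, when each library's deviations from the gene means had their trend with exonic length removed. On total counts in place of TMM it was 0.20 with 48 above 0, while that of all genes was -0.33.

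In edgeR's quasi-likelihood test with Benjamini-Hochberg adjustment over all genes, 0 of the 72 were called at an adjusted p under 0.05, where 11 of 9285 genes (0.118%) were. At an unadjusted p under 0.05 the count was also 0, against 4.53% of all genes tested. DESeq2 and limma-voom called 0 as well. The SE exceeded the size of the log2 fold change in 46 genes, and the median SE was 0.374. All 9G8-RNAi libraries lay above all GFP-dsRNA libraries in 5 genes (mRpL15, mRpL18, mRpL39, mRpL44 and mRpS23), or 6.94% against 4.81% of all genes tested, and below them in 0, against 3.79%. By CPM of total counts, a comparison chosen after the values were seen, 8 other genes were above without overlap (mRpL16, mRpL40, mRpL54, mRpS6, mRpS10, mRpS17, mRpS21 and mRpS34), against 2.5% of all genes, and 0 below, against 1.58%. None of the genes was without overlap on both scales.

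**Figure D3:**
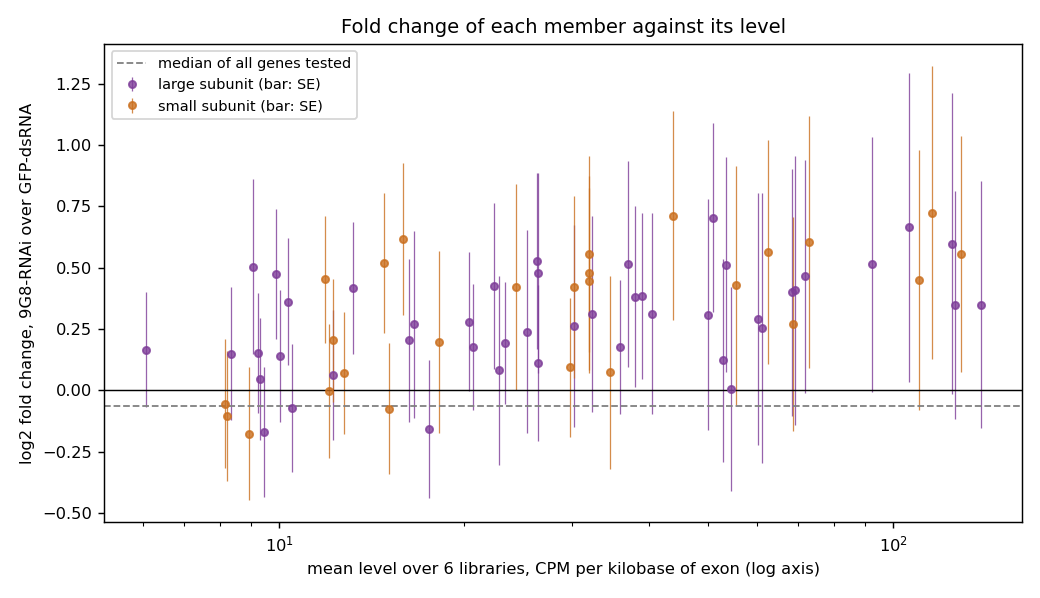
Log2 fold change of 9G8-RNAi over GFP-dsRNA (vertical axis, with SE as bars) against mean level (horizontal axis, CPM per kilobase on a log scale) for 46 large and 26 small subunit genes. The median of all genes tested (-0.07) is dashed. Fold changes and their bars were both larger at high levels, and no gene passed the threshold.

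Among the ribosome's functional parts, the stalk and its base are mRpL12, mRpL10 and mRpL11. The base protein mRpL10 had 38.3, 59.4 and 31.3 CPM per kb in 9G8-RNAi and 24.1, 30.3 and 44.7 in GFP-dsRNA. For mRpL11, which binds the ribosomal RNA beside it, the level was 14.7, 25.1 and 14.5 in 9G8-RNAi and 9.595, 14.6 and 21.04 in GFP-dsRNA. Both peaked in 9G8-RNAi B, unlike mRpL33 and mRpL36, and their groups overlapped. The log2 fold changes were 0.35 ± 0.47 for mRpL12, 0.38 ± 0.37 for mRpL10 and 0.27 ± 0.38 for mRpL11 (SE).

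Proteins around the peptidyl transferase centre, where amino acids are joined, differed widely in level. The core proteins mRpL2 and mRpL4 were among the abundant ones. mRpL2 had 69.9, 78.0 and 51.5 CPM per kb in 9G8-RNAi and 18.2, 52.6 and 96.4 in GFP-dsRNA, and mRpL4 had 66.2, 108.8 and 58.5 in 9G8-RNAi and 27.8, 49.2 and 100.1 in GFP-dsRNA. In both genes the GFP-dsRNA libraries alone spanned more than the 9G8-RNAi libraries. Their partner mRpL3 was scarce and, with TMM scaling, even, at 8.68, 10.6 and 9.09 in 9G8-RNAi and 8.77, 9.46 and 9.21 in GFP-dsRNA (log2 fold change 0.05 ± 0.25). mRpL16, which lies near the incoming transfer RNA, had 48.7, 52.1 and 29.6 in 9G8-RNAi and 16.7, 30.0 and 44.6 in GFP-dsRNA (0.52 ± 0.42). Without GFP-dsRNA A the estimate for mRpL2 was -0.21 and that for mRpL4 was 0.02, and without GFP-dsRNA D they were 1.00 and 1.12.

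At the exit of the peptide tunnel, mRpL23 had 59.1, 68.4 and 38.1 CPM per kb in 9G8-RNAi and 19.99, 43.2 and 70.6 in GFP-dsRNA. Its neighbour mRpL24 was even with TMM scaling, at 27.0, 24.9 and 22.7 in 9G8-RNAi and 23.5, 21.2 and 20.6 in GFP-dsRNA. The level of mRpL22 was 14.7, 18.8 and 16.2 in 9G8-RNAi and 14.1, 20.8 and 20.4 in GFP-dsRNA. The log2 fold changes were 0.31 ± 0.47, 0.19 ± 0.25 and -0.16 ± 0.28 for mRpL23, mRpL24 and mRpL22. mRpL45, which in mammals faces the inner membrane, had 19.9, 27.0 and 20.1 in 9G8-RNAi and 14.9, 19.5 and 20.9 in GFP-dsRNA (0.28 ± 0.28). The groups overlapped in each of these 4 genes.

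The large subunit genes with the smallest unadjusted p were mRpL30, mRpL18 and mRpL32, all with bacterial counterparts. mRpL30, on chromosome X from 4647871 to 4648646, had 71.2, 78.1 and 39.7 CPM per kb in 9G8-RNAi and 24.5, 45.2 and 46.4 in GFP-dsRNA. Its log2 fold change of 0.70 ± 0.39 was the highest of the large subunit, with an unadjusted p of 0.105 and an adjusted p of 0.918 in edgeR, and its lowest 9G8-RNAi library lay below 2 of the GFP-dsRNA libraries. mRpL18 had 10.97, 13.1 and 10.4 in 9G8-RNAi and 7.28, 9.91 and 7.60 in GFP-dsRNA, without overlap (0.47 ± 0.27). mRpL32 had 17.1, 16.2 and 12.04 in 9G8-RNAi and 11.2, 10.1 and 12.5 in GFP-dsRNA (0.42 ± 0.27). At the low end stood mRpL37, mRpL22 and mRpL50. mRpL37, a protein found only in mitochondria, had 8.86, 8.22 and 9.59 in 9G8-RNAi and 11.9, 9.81 and 8.33 in GFP-dsRNA (-0.17 ± 0.27).

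In the small subunit, mRpS10 came closest to the threshold. This head protein, encoded on 3R from 15229665 to 15230516 with no exonic overlap, had 21.1, 22.4 and 14.2 CPM per kb in 9G8-RNAi and 9.86, 12.3 and 15.6 in GFP-dsRNA. 9G8-RNAi D lay below GFP-dsRNA D, so the groups overlapped on this scale. The log2 fold change was 0.62 ± 0.31, with an unadjusted p of 0.081 and an adjusted p of 0.918 in edgeR, and it ranged from 0.34 to 0.89 over 15 alternative settings. mRpS2, a conserved protein of the subunit, had 20.7, 18.8 and 12.9 in 9G8-RNAi and 11.4, 13.3 and 11.8 in GFP-dsRNA (0.52 ± 0.28). mRpS23 had 14.0, 15.95 and 11.2 in 9G8-RNAi and 10.4, 9.84 and 9.77 in GFP-dsRNA, without overlap (0.45 ± 0.26).

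The highest small subunit fold changes belonged to mRpS14 (0.72 ± 0.60), mRpS6 (0.71 ± 0.42) and mRpS10. mRpS6, which pairs with S18 in bacteria, had 63.6, 63.0 and 36.6 CPM per kb in 9G8-RNAi and 17.4, 33.7 and 48.6 in GFP-dsRNA. Drosophila has 3 genes for S18 proteins. mRpS18C had 43.6, 43.2 and 23.7 in 9G8-RNAi and 17.0, 28.4 and 35.6 in GFP-dsRNA, mRpS18A had 34.0, 45.8 and 26.3 in 9G8-RNAi and 19.4, 33.0 and 48.6 in GFP-dsRNA, and mRpS18B had 19.4, 24.8 and 14.2 in 9G8-RNAi and 10.7, 16.4 and 23.8 in GFP-dsRNA. The 3 genes thus differed in level, mRpS18B being lowest of them in each of the 6 libraries, and their groups overlapped. Their log2 fold changes were 0.45 ± 0.38, 0.07 ± 0.39 and 0.20 ± 0.37, in the order named.

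The conserved proteins S5 of the body, S7 and S9 of the head and S11 of the platform were of middling to low level. mRpS7 had 30.3, 37.5 and 24.3 CPM per kb in 9G8-RNAi and 27.3, 27.1 and 32.0 in GFP-dsRNA, and mRpS11 had 13.3, 14.6 and 11.3 in 9G8-RNAi and 11.6, 11.7 and 10.8 in GFP-dsRNA. mRpS5 had 34.3, 26.8 and 22.3 in 9G8-RNAi and 23.8, 10.1 and 28.4 in GFP-dsRNA, and was the only one of the 4 with GFP-dsRNA B far below the other libraries. Without GFP-dsRNA B its log2 fold change was 0.09, against 0.42 ± 0.42 with it. mRpS9 shares 25.1% of its exonic bases with ArgRS-m, the mitochondrial arginyl-tRNA synthetase gene on the other strand, and had 16.01, 11.8 and 16.4 in 9G8-RNAi and 14.5, 17.0 and 15.1 in GFP-dsRNA (-0.07 ± 0.27). The lowest fold change of all was that of mRpS30, with 9.56, 6.76 and 8.83 in 9G8-RNAi and 8.65, 10.8 and 8.95 in GFP-dsRNA (-0.18 ± 0.27).

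The S12 gene tko, known for mutants with seizures and slow development, had 167, 90.7 and 62.5 CPM per kb in 9G8-RNAi and 25.6, 72.0 and 102 in GFP-dsRNA, the library order of the abundant small subunit genes (0.68 ± 0.57). The S15 gene bonsai had 13.6, 10.4 and 13.5 in 9G8-RNAi and 13.5, 14.1 and 10.8 in GFP-dsRNA (-0.04 ± 0.27). Neither passed the threshold. Adding them to the small subunit gave a large over small ratio of 1.51, 1.67 and 1.61 in 9G8-RNAi and 1.72, 1.71 and 1.69 in GFP-dsRNA, without overlap.

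Genes with a bacterial counterpart and genes found only in mitochondria were compared within each subunit, going by the number in the symbol, except that mRpL47, mRpS24 and mRpS28 were placed with the first kind as the counterparts of L29, S3 and S1. The 45 genes with a counterpart had a median level of 31.9 CPM per kb and a median log2 fold change of 0.35, with 43 above 0. The 28 others (27 tested) had a median level of 22.4 and a median log2 fold change of 0.27, with 21 above 0. In the small subunit, 16 genes with a counterpart had a median level of 31.9 and a median log2 fold change of 0.45 (15 above 0), and 10 without one had 12.4 and 0.17 (6 above 0). In the large subunit the medians were 0.31 and 0.28. Those 10 small subunit genes were also longer, with a median of 984.5 exonic bases against 721, and over all genes tested the rank correlation of fold change with length was -0.475 (-0.493 over the 72 genes). The difference between the classes was not tested.

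With TMM scaling, the range of a gene between libraries went with its level. The classes, and the gene pairs set side by side further on, were chosen after the values were seen. In the 21 genes with a mean over 50 CPM per kb (14 of the large subunit), the highest library was a median 3.93-fold above the lowest and the median log2 fold change was 0.45. The 25 genes from 20 to 50 had a median range of 2.58-fold and a median log2 fold change of 0.31. For the 26 genes under 20 these were 1.49-fold and 0.15. The rank correlation of range with level was 0.849 over the 72 genes, which share the 6 libraries, whereas it was -0.254 over all genes tested. The genes tested reach down to a mean of 0.0141 CPM per kb, against 6.07 among the 72, and other genes of like level were not compared. On total counts the median ranges of the 3 classes were 2.03-fold, 1.71-fold and 2.48-fold. The correlation over the 72 genes was then -0.247, so this pattern changed sign with the scaling.

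In a ratio within a library the scaling factor cancels, although the classes themselves were set by TMM-scaled means. The median gene of the class over 50 was 8.97, 6.82 and 4.99 times that of the class under 20 in 9G8-RNAi A, B and D, and 2.96, 6.50 and 9.01 times in GFP-dsRNA A, B and D. In fold terms the abundant genes were thus closest to the scarce ones in GFP-dsRNA A, next in 9G8-RNAi D, and farthest in GFP-dsRNA D and 9G8-RNAi A. The means were 6.93 ± 1.99 in 9G8-RNAi and 6.16 ± 3.04 in GFP-dsRNA (SD, n = 3 each), a difference smaller than either SD. mRpL36 over mRpL44 was 37.3, 20.7 and 12.2 in 9G8-RNAi and 5.43, 23.2 and 23.3 in GFP-dsRNA, and mRpS21 over mRpS11 was 15.7, 10.5 and 8.52 in 9G8-RNAi and 4.51, 8.22 and 15.2 in GFP-dsRNA. The first ratio thus differed by up to 6.87-fold between libraries and the second by up to 3.48-fold, with overlapping groups. The muscle marker Mhc had 8.35 to 40.3 CPM of total counts in 9G8-RNAi, 1418 in GFP-dsRNA A, where both ratios were lowest, and 25.1 and 8.71 in GFP-dsRNA B and D. Its part in the ratios was not tested.

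**Figure D4:**
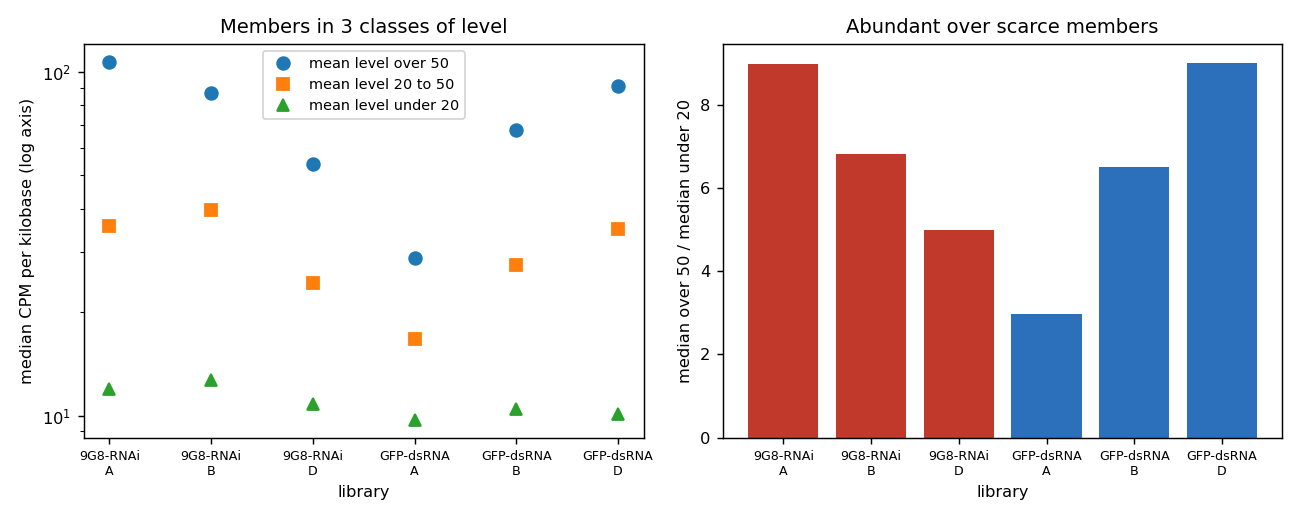
Left, median level of the genes in 3 classes of mean level (CPM per kilobase, log axis) in each library; right, the class over 50 divided by the class under 20, with bars from 0. The 3 ratios of 9G8-RNAi (4.99 to 8.97) lay within the range of GFP-dsRNA (2.96 in A to 9.01 in D).

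Counting by gene bears on several members. In 43 of the 73 genes some exonic bases overlap another gene, in 3 of them on the same strand, and the sources used here do not give the strand setting of the counting. Above 20% of the exonic bases were shared in 8 genes, chosen for naming by that value: mRpL53 (100%), mRpS24 (55.3%), mRpS21 (48.0%), mRpS14 (35.8%), mRpL13 (35.2%), mRpS9 (25.1%), mRpL17 (23.6%) and mRpL48 (20.8%). All 829 exonic bases of mRpL53 lie within AGO1 and CG33155 on the same strand, and it had 0 counts in each of the 6 libraries. It was the 1 gene of the 73 that was not tested. The 30 genes with no overlap had a median log2 fold change of 0.31 with 27 above 0, the same median as the whole set.

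The genes are scattered over the genome, with 12 on 2L, 12 on 2R, 17 on 3L, 21 on 3R and 11 on X. Only 2 pairs were neighbours within 50000 bases, mRpL24 with mRpL28 on 2L (28614 bases apart) and mRpL3 with mRpS30 on X (23383 bases apart). With TMM scaling mRpL24 and mRpL28 were both even between libraries, with highest over lowest values of 1.31 and 1.41. On that scale mRpL3 and mRpS30 were even likewise, with 1.22 and 1.60, but all were in the lower or middle range of level. On total counts they were less even, each lowest in GFP-dsRNA D and highest in GFP-dsRNA A. In these 2 libraries mRpL24 had 11.4 and 34.5 CPM, mRpL28 24.6 and 59.1, mRpL3 7.27 and 18.3, and mRpS30 11.8 and 30.2.

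Other nuclear genes of mitochondrial gene expression, from a list of factors and synthetases, had fold changes centred near 0. Of 34 translation and transcription factors and mitochondrial tRNA synthetases, 33 were tested and 14 had a log2 fold change above 0, with a median of -0.03. None was called by edgeR. These transcripts were longer, with a median of 1796 exonic bases, and scarcer, with a median of 2.02 CPM per kb. The most abundant was TFAM, which packages the mitochondrial genome, with 29.2, 65.5 and 38.5 CPM per kb in 9G8-RNAi and 17.7, 33.8 and 63.4 in GFP-dsRNA. It was lowest in GFP-dsRNA A, a library that was lowest for 5 of the 33 tested genes. 9G8-RNAi B was lowest for 12 of them. The elongation factor gene mEFTu1 had 34.7, 27.7 and 31.8 in 9G8-RNAi and 22.8, 49.4 and 44.4 in GFP-dsRNA. By contrast the cytoplasmic ribosomal proteins had 78 of 84 tested genes above 0 with a median of 0.42, and nuclear genes of the respiratory chain had 51 of 65 above 0 with a median of 0.25, none of them called. The difference between these lists and the mitochondrial ribosomal proteins was not tested.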

How the data were processed

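RNA was measured by polyA-selected RNA-seq in 3 9G8-RNAi and 3 GFP-dsRNA libraries, grouped by title. The deposited values are raw counts per gene, not normalized, with summed exon lengths per the file headers. The tools named by the submitters' processing notes are Subread 1.5.2 with featureCounts, STAR 2.5.2b and Trimmomatic 0.36, and the build is BDGP6. How strand and reads shared by genes were handled, and which annotation was used, is not given in the sources used here, which leaves overlapping genes uncertain.

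Symbols came from Ensembl release 115 by identifier (17137 genes) or by at least 80% reciprocal overlap (216 genes), with 58 genes unnamed. Counts were tested with edgeR 4.0.16 in R 4.3.3 (filterByExpr, TMM, robust quasi-likelihood test, Benjamini-Hochberg adjustment over all 9285 genes, threshold 0.05), and the fit was tested on simulated data. DESeq2 1.42.0, limma-voom (limma 3.58.1), other scalings and filters, a replicate block, a length trend and leaving out each library were alternatives. Exact permutation of 3 against 3 cannot go below 0.1. Log2 fold changes are 9G8-RNAi minus GFP-dsRNA, with SE. Tables were joined with Python 3.11.15. The SEs come from the quasi-likelihood fit and the SDs from the 3 libraries of a group. Both include the spread between samples. Floors cover counting error only, and 3 counts correspond to 0.0451 to 0.114 CPM. No library pair was a duplicate: the lowest chi-square per degree of freedom was 245.6, between 9G8-RNAi B and GFP-dsRNA D, libraries of different groups.

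The members, lists, roles and tests were chosen with earlier results of these data known. Genes named by rule were, per subunit, the 4 most and 2 least abundant, the 3 highest and 3 lowest fold changes, the 3 with the smallest p, and genes of stated roles. Others were named after their values were seen. Promoter motifs and the mitochondrial rRNAs were not analysed here.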

Additional observations from a re-analysis of the deposited data

How the results depend on the processing

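No mitochondrial ribosomal protein gene passed the threshold in the main analysis or in any of the 15 alternatives. At an unadjusted p under 0.05 the count was 0 of 72 throughout except for 1 without 9G8-RNAi D and 8 without GFP-dsRNA D. Over all genes tested, 529 of 9284 were under 0.05 without 9G8-RNAi D and 1018 of 9933 without GFP-dsRNA D. The median log2 fold change of these genes kept its sign, from 0.056 (without GFP-dsRNA A) to 0.70 (without GFP-dsRNA D), from 0.032 to 0.69 for the large and from 0.14 to 0.73 for the small subunit when 1 library was left out. Of the 41 genes named by rule, 21 kept the sign of their fold change in all 15 alternatives. Over all genes, 11 were called, against 17 on total counts only, 50 with no low-count filter, 104 with DESeq2, 2 with limma-voom, 24 with the length trend removed and 0 to 11 with 1 library left out. The change of the large over small subunit log2 ratio was -0.084, -0.018 by the median gene, 0.014 with genes of overlapping exons left out and -0.11 to -0.06 with 1 library left out. On total counts, tried after seeing the data, the rank correlation of library range with level was -0.247, against 0.849 with TMM, and the genes with all 9G8-RNAi libraries above all GFP-dsRNA libraries numbered 8, against 5. The cause of these differences was not tested.

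With the replicate letters as a block, 0 of all genes were called (217 at an unadjusted p under 0.05), and the median of the mitochondrial ribosomal protein genes was 0.38. Same-letter libraries had correlations of their deviations from the group means between -0.46 and -0.018. The highest for different letters was 0.496, between 9G8-RNAi B and GFP-dsRNA D. Deviations of 3 libraries from their mean sum to 0, so whether letters mark a shared cohort or batch cannot be told from these values.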
